A study of Mus musculus with 11 samples.

Results

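The 10 genes described here, Atf4, Atf5, Ddit3, Trib3, Asns, Chac1, Fgf21, Hspa5, Herpud1 and Xbp1, belong to the integrated stress response or to its neighbour in the endoplasmic reticulum (ER). They were chosen by name, 10 of the 22911 genes that the accessions on the arrays name, and all of their 18 probes were kept. RNA was taken from whole livers of male C57Bl6/J mice, 5 days after an intraperitoneal injection of adeno-associated virus serotype 8 (AAV8) given at 8 weeks of age. The viruses carried, under the CMV promoter, the intracellular domain of Notch1 or of Notch2 (NICD1, NICD2), which is the freed signalling part of these receptors, or green fluorescent protein (GFP). The 4 groups of livers were hybridised to 11 single-colour arrays, 1 liver to an array. The GFP group (n = 3) received 6e+11 vector genomes of the GFP virus. The NICD1 group (n = 3) and the NICD2 group (n = 3) each received 3e+11 vector genomes of their NICD virus with 3e+11 of the GFP virus. The NICD1&2 group (n = 2) received 3e+11 of each NICD virus and no GFP virus, so that every mouse was given the same total dose. The dose of GFP virus fell as NICD virus was added, so that in comparisons with the GFP group these changes cannot be told apart. All mice thus carried AAV8, and livers without virus were not analysed here. The CMV promoter is not restricted to hepatocytes, and tissue was taken whole, so that fewer cells of a type and less RNA per cell cannot be told apart.

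The integrated stress response is a translational and transcriptional programme by which cells meet amino acid shortage, unfolded protein in the ER, viral double-stranded RNA or haem deficiency. Each stress activates its own kinase, all of which phosphorylate the initiation factor eIF2alpha. General translation then slows, while mRNAs with upstream open reading frames, those of the transcription factors ATF4, ATF5 and CHOP (the product of Ddit3) among them, are translated better. ATF4 raises transcription of amino acid enzymes such as asparagine synthetase (Asns), of the pseudokinase Trib3, of the glutathione-degrading enzyme Chac1 and, in liver, of the secreted hormone Fgf21. In the ER arm, the chaperone BiP (Hspa5), the membrane protein Herpud1, which takes part in ER-associated degradation, and the transcription factor XBP1 answer to unfolded protein. Much of ATF4 control is translational, and XBP1 is activated by splicing of its mRNA, and the array values below are levels of total mRNA and report on neither step.

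Short sequence elements through which these genes are known to be driven were looked for on both strands, from 250 bases before to 50 bases after the transcription start, in the RefSeq promoters of the GRCm38.p6 build. All 10 genes had a promoter, and Atf5 had 2. The amino acid response element, written TGATGNAAT, lay in 1 of the 10 genes, Fgf21, and in 0.965% of all 32851 promoters of this length. Its core without the last letter, TGATGNAA, which overlaps it and was added after the promoters had been read, lay in 5 of the 10, Trib3, Asns, Chac1, Fgf21 and Herpud1, and in 3.97% of all promoters. The ER stress response element, CCAAT and CCACG with 9 bases between them, lay in Hspa5 and in 0.119% of all promoters. The ER stress response element II, ATTGG and CCACG with 1 base between them, also added after reading the promoters, lay in Herpud1 and in 0.0365% of all promoters. A match describes the letters and not a bound site. The 250 bases before the start are shown for the 5 genes with a match there, since these carry the elements of both arms, 5′ to 3′ along the gene's own strand, with matches in capitals. They lie at chr6:7693210-7693459 (minus strand) for Asns, chr2:119350992-119351241 (plus strand) for Chac1, chr7:45615491-45615740 (minus strand) for Fgf21, chr2:34771840-34772089 (plus strand) for Hspa5 and chr8:94386179-94386428 (plus strand) for Herpud1.
Asns: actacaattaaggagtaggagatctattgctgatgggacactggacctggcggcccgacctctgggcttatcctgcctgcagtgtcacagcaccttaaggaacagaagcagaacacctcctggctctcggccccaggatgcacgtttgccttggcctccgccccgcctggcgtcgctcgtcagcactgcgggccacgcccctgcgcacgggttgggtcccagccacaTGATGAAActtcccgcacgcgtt
Chac1: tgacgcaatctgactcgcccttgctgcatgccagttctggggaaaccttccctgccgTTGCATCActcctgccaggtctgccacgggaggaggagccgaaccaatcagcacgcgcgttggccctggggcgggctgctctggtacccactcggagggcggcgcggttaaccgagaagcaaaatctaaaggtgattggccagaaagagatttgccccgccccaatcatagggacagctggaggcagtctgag
Fgf21: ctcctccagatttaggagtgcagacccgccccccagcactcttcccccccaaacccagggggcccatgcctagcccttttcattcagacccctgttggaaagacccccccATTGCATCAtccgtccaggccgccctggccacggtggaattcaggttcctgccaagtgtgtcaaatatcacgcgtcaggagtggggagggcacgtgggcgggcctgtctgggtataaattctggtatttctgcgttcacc
Hspa5: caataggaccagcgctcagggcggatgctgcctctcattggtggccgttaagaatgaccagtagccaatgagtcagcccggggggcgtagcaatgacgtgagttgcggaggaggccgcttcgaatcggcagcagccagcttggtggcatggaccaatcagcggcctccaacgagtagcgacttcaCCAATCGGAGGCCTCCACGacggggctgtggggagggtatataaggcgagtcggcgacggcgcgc
Herpud1: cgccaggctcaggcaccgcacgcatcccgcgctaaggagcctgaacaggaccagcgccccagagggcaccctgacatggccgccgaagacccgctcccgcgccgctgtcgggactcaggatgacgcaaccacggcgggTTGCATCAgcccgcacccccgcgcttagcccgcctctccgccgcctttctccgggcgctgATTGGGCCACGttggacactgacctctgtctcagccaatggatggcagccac
In Fgf21 the capitals end 132 bases before the start, in Chac1 186, in Asns 16 and in Hspa5 47. Herpud1 holds both kinds, the core ending 105 and the element II ending 42 bases before the start. The Trib3 match lies after the start and is not shown.

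Values are log2 signals relative to the 75th percentile of each array, so that 1 unit is a doubling and levels of different genes cannot be set against each other. The 10 hepatocyte markers examined were well above background on every array, with summed levels of 12.41 to 12.86. Between 57.0% and 62.0% of spots were well above background on an array. Array GFP 1 stood somewhat apart, with a median correlation of 0.982 with the other arrays against 0.987 to 0.991 for the remaining 10. Both slides held arrays of every group. Slide 1 held 2 GFP, 1 NICD1, 2 NICD2 and 1 NICD1&2 arrays, and slide 2 held 1, 2, 1 and 1. Nrarp, a direct Notch target, was not well above background on any GFP array. In the main processing it was at least 5.13-fold higher in NICD2 and at least 7.78-fold higher in NICD1&2 (limma adjusted p = 0.103 and 0.0712). These bounds set GFP readings no lower than the dimmest signal well above background on the array. Under other processing its log2 difference was as low as 0.53 in NICD2 and 0.67 in NICD1&2. In NICD1 it was well above background on 2 of 3 arrays, and its readings of -3.90, -3.83 and -5.19 overlapped with those of GFP. Hes1, another Notch target, gave -0.027 in NICD1, 1.64 in NICD2 and 1.36 in NICD1&2 (limma adjusted p = 0.994, 0.414 and 0.280), the latter pair without overlap with GFP. The Notch1 probe averaged 0.55 in GFP, 0.77 in NICD1, 0.18 in NICD2 and 0.71 in NICD1&2, and the Notch2 probe 1.76, 2.06, 1.97 and 1.76. Neither separated the groups given its domain from the others, and whether these probes read the delivered sequences is not given in the sources used here. Of the 18 probes of the 10 genes, 16 were well above background on all 11 arrays and the other 2, the Fgf21 probe and the dimmer Asns probe, on 10. For a gene with several probes the brightest stands for the gene unless another is named.

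None of the 10 genes passed the limma test across all 36052 probes tested in any comparison. The lowest adjusted p was 0.753 in NICD1 against GFP, 0.429 in NICD2 against GFP and 0.179 in NICD1&2 against GFP. Over all probes, 0.00832%, 0.0527% and 0.0999% passed in these comparisons. At an unadjusted p under 0.05, 2 genes passed in NICD1 against GFP (Ddit3 and Trib3, against 5.50% of all probes), 2 in NICD2 against GFP (Chac1 and Herpud1, against 6.86%) and 1 in NICD1&2 against GFP (Herpud1, against 14.8%). An ordinary linear model without moderated variances likewise called 0 of the 10 in each. The looser definition of the study, P below 0.15 with a change above 1.8-fold, was applied to the limma P of the probes tested here. It was met in NICD1 against GFP by 2 genes, Chac1 and Asns (2.19% of all probes). In NICD2 against GFP and in NICD1&2 against GFP it was met by 1 gene, Chac1 (1.97% and 6.24% of all probes).

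The arrays of the NICD1 group lay all above those of GFP for 1 gene, Ddit3, and all below for 2, Trib3 and Xbp1 (7.10% and 5.39% of all probes). In NICD2, 3 genes lay all above GFP, Chac1, Hspa5 and Herpud1, and 1 all below, Xbp1 (7.81% and 5.56% of all probes), though 1 of 3 probes of Hspa5 and 1 of 3 of Xbp1 overlapped with GFP. In NICD1&2, 3 genes lay all above, Ddit3, Chac1 and Herpud1, and 0 all below (24.0% and 10.5% of all probes, in a group of 2 arrays). With 3 arrays against 3 the exact two-sided permutation test cannot give a p below 0.1, and with 2 against 3 none below 0.2. The median difference over the 10 genes was 0.02 in NICD1, -0.13 in NICD2 and 0.10 in NICD1&2, beside 0.02, 0.02 and 0.12 over all probes. The differences went both ways, with 5, 4 and 5 of the 10 genes higher than in GFP. The 3 comparisons share the same GFP arrays and are not independent of each other. In NICD1&2 the median of all probes moved to 0.0029 under normexp background correction with quantile normalization. Relative to the median of all probes, the NICD1&2 difference was 0.61 for Herpud1 and 1.13 for Chac1.

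**Figure D1:**
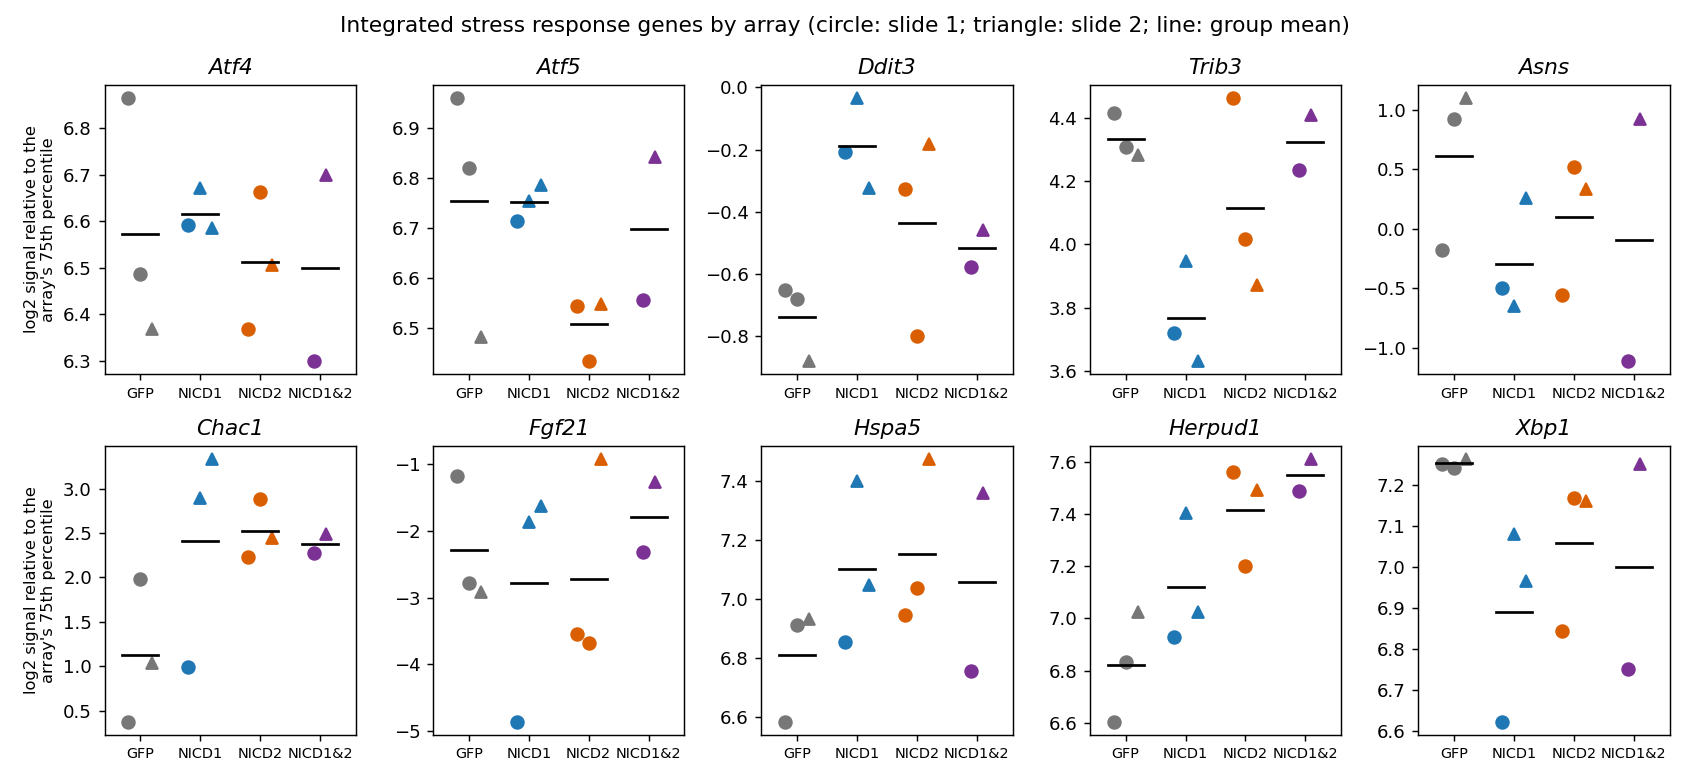
Log2 signal relative to the array's 75th percentile (vertical axis, a separate scale for each gene) of the 10 genes on each of the 11 arrays, by group. Circles are arrays of slide 1, triangles arrays of slide 2 and lines group means. Chac1 and Herpud1 lie above all GFP arrays on every NICD2 and NICD1&2 array, while the 3 NICD1 arrays of Trib3, at 3.63 to 3.95, lie below the GFP arrays at 4.28 to 4.41.

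Chac1, which encodes a gamma-glutamylcyclotransferase that breaks down glutathione, had the largest differences from GFP among the 10 genes in each NICD group. It read 0.37, 1.98 and 1.03 on the GFP arrays, 0.99, 2.90 and 3.34 in NICD1, 2.24, 2.89 and 2.44 in NICD2, and 2.27 and 2.48 in NICD1&2. All NICD2 and NICD1&2 arrays were above the highest GFP array, whereas NICD1 replicate 1 lay within the GFP range. Mean levels were 1.13 ± 0.81 (SD, n = 3) in GFP, 2.41 ± 1.25 (SD, n = 3) in NICD1, 2.52 ± 0.33 (SD, n = 3) in NICD2 and 2.38 ± 0.15 (SD, n = 2) in NICD1&2. The 3 NICD means differed from each other by less than the spread between arrays. In NICD2 Chac1 was 2.62-fold above GFP, a log2 difference of 1.39 (SE 0.59, 95% interval 0.04 to 2.74, limma adjusted p = 0.714, exact permutation p = 0.1). The difference was 1.28 (SE 0.59, 95% interval -0.07 to 2.62, limma adjusted p = 0.903) in NICD1. In NICD1&2 it was 1.25 (SE 0.66, 95% interval -0.26 to 2.75, limma adjusted p = 0.395). Within slides, the NICD2 difference was 1.38 on slide 1 and 1.41 on slide 2, and the NICD1&2 difference 1.09 and 1.45. On slide 2 both of these set 1 array against 1. The NICD1 difference was -0.19 on slide 1, which held 1 NICD1 array, and 2.08 on slide 2, which held 2 of them. With single arrays left out, the NICD1 difference ranged from 0.81 (without NICD1 replicate 3) to 1.99 (without NICD1 replicate 1), the NICD2 difference from 1.01 (without GFP 1) to 1.82 (without GFP 2) and the NICD1&2 difference from 0.87 (without GFP 1) to 1.67 (without GFP 2). The study's definition was met under all 21 alternatives in NICD2, under 18 of 21 in NICD1 and under 17 of 21 in NICD1&2. Those under which it was not met each left out 1 array: GFP 1, NICD1 replicate 2 or NICD1 replicate 3 for NICD1, and GFP 1, GFP 3 or either NICD1&2 array for NICD1&2.

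Trib3, an ATF4 and CHOP target that feeds back on ATF4 and also binds the kinase AKT, stood apart in NICD1. Its GFP arrays read 4.41, 4.31 and 4.28, its NICD1 arrays 3.72, 3.95 and 3.63. The NICD2 arrays read 4.46, 4.02 and 3.87 and the NICD1&2 arrays 4.24 and 4.41. All 3 NICD1 arrays were thus below GFP, and both other groups overlapped with it. The difference in NICD1 was -0.57 (SE 0.16, 95% interval -0.93 to -0.21, limma p = 0.00604, adjusted p = 0.753, exact permutation p = 0.1), a level 1.48-fold lower. It was -0.64 on slide 1 and -0.49 on slide 2. In NICD2 the difference was -0.22 (SE 0.16) and in NICD1&2 it was -0.012 (SE 0.18, limma adjusted p = 0.887 and 0.977). The NICD2 difference ranged from -0.39 (without NICD2 replicate 1) to -0.095 (without NICD2 replicate 3), and the NICD1 difference from -0.66 to -0.50 with single arrays left out.

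Ddit3, which encodes the C/EBP-family factor CHOP, was higher in NICD1, opposite to its own target Trib3. It read -0.65, -0.68 and -0.88 in GFP and -0.21, -0.03 and -0.33 in NICD1. In NICD2 it read -0.33, -0.80 and -0.18, and in NICD1&2 -0.58 and -0.46. The NICD1 and NICD1&2 arrays were all above GFP, and NICD2 replicate 2 lay inside the GFP range. Differences from GFP were 0.55 (SE 0.16) in NICD1, 0.30 (SE 0.16) in NICD2 and 0.22 (SE 0.18) in NICD1&2 (limma adjusted p = 0.781, 0.814 and 0.555). The 95% interval in NICD1 was 0.18 to 0.92, and the difference was 0.46 on slide 1 and 0.70 on slide 2. With single arrays left out the NICD2 difference ranged from 0.17 (without NICD2 replicate 3) to 0.48 (without NICD2 replicate 2), and the NICD1&2 difference was 0.012 under normexp with quantile normalization.

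The 2 upstream transcription factors varied little. Atf4 ranged from 6.30 to 6.87 over all 11 arrays. Its difference from GFP was 0.044 (95% interval -0.31 to 0.40) in NICD1, -0.060 (-0.42 to 0.30) in NICD2 and -0.074 (-0.47 to 0.33) in NICD1&2. These intervals exclude a change of Atf4 mRNA by 1.8-fold in either direction. Atf5, a related factor abundant in liver, ranged from 6.44 to 6.96. Its NICD2 arrays, at 6.54, 6.44 and 6.55, lay below the NICD1 arrays, at 6.71, 6.76 and 6.79, without overlap. The GFP arrays, at 6.96, 6.82 and 6.48, overlapped with both groups. Both Atf5 probes gave the same separation of NICD1 from NICD2, by 0.24 and 0.22 (limma adjusted p = 1.0 for each, exact permutation p = 0.1). The 2 probes of Atf5 correlated at r = 0.96 over the 11 arrays and those of Atf4 at r = 0.71, as a description.

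Asns and Fgf21 varied more between livers of a group than between groups. Asns read -0.18, 0.92 and 1.1 in GFP, -0.50, -0.65 and 0.26 in NICD1, -0.56, 0.52 and 0.33 in NICD2, and -1.11 and 0.92 in NICD1&2. Every group overlapped with every other. Its difference from GFP was -0.91 (SE 0.56) in NICD1, -0.52 (SE 0.56) in NICD2 and -0.71 (SE 0.63) in NICD1&2 (limma adjusted p = 0.914, 0.943 and 0.575). With single arrays left out it ranged from -1.31 (without GFP 1) to -0.67 (without GFP 3) in NICD1, from -0.91 (without GFP 1) to -0.19 (without NICD2 replicate 1) in NICD2 and from -1.73 to 0.31 (without 1 or the other array of the group) in NICD1&2. In NICD1 it met the study's definition under 13 of 22 alternatives. Fgf21, a fasting and stress hormone of the liver, read -1.19, -2.78 and -2.92 in GFP and -4.86, -1.87 and -1.63 in NICD1, the first of these not well above background. It read -3.54, -3.68 and -0.93 in NICD2 and -2.32 and -1.27 in NICD1&2. Its within-group SD of 1.40 was above that of 99.8% of the probes tested, whose median was 0.22. Asns, at 0.77, and Chac1, at 0.82, were above 93.0% and 94.2% of probes. The within-group SD of the other 7 genes ranged from 0.16 (Atf5) to 0.29 (Hspa5). For Fgf21 the 95% interval of the difference from GFP ran from -2.78 to 1.8 in NICD1, -2.71 to 1.87 in NICD2 and -2.06 to 3.06 in NICD1&2, so that differences of several fold were not detectable in either direction.

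**Figure D2:**
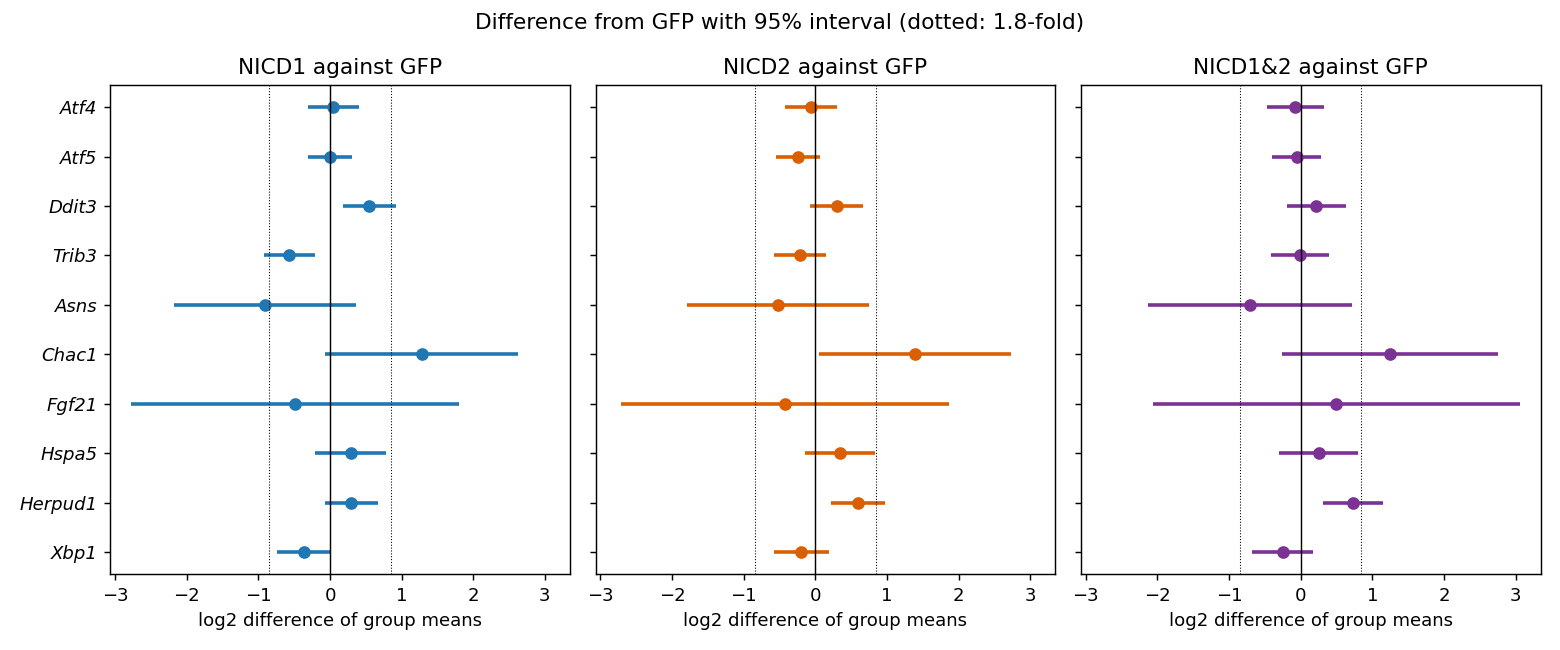
Log2 difference of the group mean from GFP (horizontal axis) for each gene in the 3 NICD groups, with the 95% interval of the limma fit as bars and 1.8-fold as dotted lines. The interval of Herpud1 lies above 0 in NICD2 (0.22 to 0.97) and in NICD1&2 (0.31 to 1.14), those of Chac1 in NICD2 and Ddit3 in NICD1 also lie above 0, that of Trib3 in NICD1 lies below 0, and the widest are those of Fgf21.

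Of the ER genes, Herpud1 came nearest to the threshold. Its brightest probe read 6.61, 6.83 and 7.02 in GFP, 6.93, 7.40 and 7.02 in NICD1, 7.56, 7.20 and 7.49 in NICD2, and 7.49 and 7.61 in NICD1&2. All NICD2 and NICD1&2 arrays were above the highest GFP array, and NICD1 overlapped with GFP. The order of the means was 6.82 ± 0.21 (SD, n = 3) in GFP, 7.12 ± 0.25 (SD, n = 3) in NICD1, 7.42 ± 0.19 (SD, n = 3) in NICD2 and 7.55 ± 0.09 (SD, n = 2) in NICD1&2. In this order the arrays of each pair of neighbours overlapped. The difference from GFP was 0.60 in NICD2 (SE 0.16, limma adjusted p = 0.429) and 0.73 in NICD1&2 (SE 0.18, limma adjusted p = 0.179), levels 1.51-fold and 1.66-fold higher. In NICD1 it was 0.30 (SE 0.16, limma adjusted p = 0.905), and 0.16 without NICD1 replicate 2. The second probe gave 0.68 in NICD2 and 0.73 in NICD1&2 (limma adjusted p = 0.290 and 0.166) and tracked the first at r = 0.96. Within slides 1 and 2 the brightest probe differed by 0.66 and 0.47 in NICD2 and by 0.77 and 0.59 in NICD1&2. The slide 2 values each set 1 array against 1. Without array GFP 1 the differences were 0.49 and 0.62. Under normexp background correction with quantile normalization, Herpud1 passed in NICD1&2 against GFP (difference 0.61, limma adjusted p = 0.0424), which it did under none of the other alternatives tried (adjusted p 0.0424 to 0.615 over all 22).

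Hspa5, which encodes the main ER chaperone BiP, showed a disagreement between its probes. The brightest read 6.59, 6.91 and 6.93 in GFP, 6.86, 7.40 and 7.05 in NICD1, 6.95, 7.04 and 7.48 in NICD2, and 6.76 and 7.36 in NICD1&2. All NICD2 arrays were above GFP, the lowest of them by a small margin, and the other groups overlapped with it. In NICD2 the 3 probes gave differences of 0.34, 0.52 and 0.45 (limma adjusted p = 0.858, 0.671 and 0.766), and the third of them overlapped with GFP. In NICD1 they gave 0.29, 0.29 and 0.28. For the brightest probe the difference was 0.18 in NICD2 without NICD2 replicate 3 and 0.14 in NICD1 without NICD1 replicate 2. In NICD1&2 the brightest gave 0.25 (SE 0.24), while the other 2 gave -0.21 (SE 0.23) and -0.13 (SE 0.24), with adjusted p in limma of 0.612, 0.643 and 0.790. The 2 dimmer probes correlated with each other at r = 0.98 over the 11 arrays and with the brightest at 0.38 and 0.44. NICD1&2 replicate 2 was the array on which they parted: the brightest probe read 7.36 there, above every GFP array, and the second 4.75, below every GFP array. All 3 probes carry the same RefSeq accession, and no direction is given for Hspa5 in NICD1&2.

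Xbp1, the transcription factor of the IRE1 arm, lay lower in NICD1 on each of its 3 probes. The brightest read 7.25, 7.24 and 7.26 in GFP, the closest agreement of any gene here, and 6.62, 7.08 and 6.97 in NICD1. It read 6.84, 7.17 and 7.16 in NICD2 and 6.75 and 7.25 in NICD1&2. All NICD1 and NICD2 arrays were below GFP on this probe. The NICD1 differences on the 3 probes were -0.36 (SE 0.17), -0.32 (SE 0.13) and -0.42 (SE 0.13), with adjusted p in limma of 0.901, 0.879 and 0.772, and the arrays did not overlap with GFP on any of them. The NICD2 differences were -0.19, -0.25 and -0.24, and those in NICD1&2 -0.25, -0.27 and -0.38. In NICD2 the dimmest of the 3 probes overlapped with GFP. Without replicate 1 of the group, the difference of the brightest probe was -0.23 in NICD1 and -0.088 in NICD2. The NICD1 difference of the brightest probe was -0.62 on slide 1 and -0.24 on slide 2. Xbp1 and Herpud1, both ER genes, thus had differences of opposite sign from GFP in each NICD group, none of which passed. On the brightest probe the NICD1&2 difference of Xbp1 was -0.0018 without replicate 1 and -0.50 without replicate 2, whereas on the other 2 probes both NICD1&2 arrays lay below every GFP array.

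**Figure D3:**
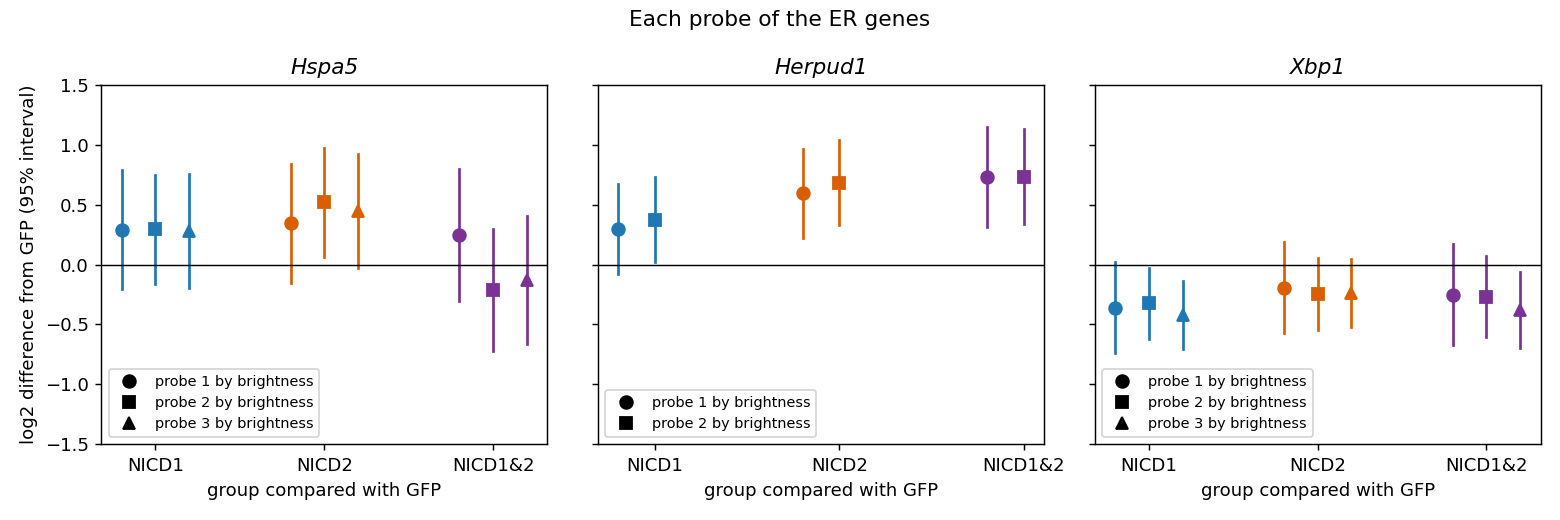
Log2 difference from GFP (vertical axis) of each probe of Hspa5 (3 probes), Herpud1 (2 probes) and Xbp1 (3 probes) in the 3 NICD groups, with 95% intervals, where symbols rank the probes of a gene by brightness. The probes of Herpud1 and of Xbp1 run together, while in NICD1&2 the brightest Hspa5 probe lies at 0.25 and the other 2 at -0.21 and -0.13.

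In the direct comparison of NICD1 with NICD2, 0 of the 10 genes passed (0.00277% of all probes) and 0 had an unadjusted p under 0.05 (3.73%). None met the study's definition (1.21%). Atf5 was the 1 gene whose NICD1 arrays all lay higher (4.20% of all probes), and 0 lay all lower (5.12%). The largest differences were those of Asns, -0.39 (SE 0.56), Trib3, -0.35 (SE 0.16), Herpud1, -0.30 (SE 0.16), and Ddit3, 0.25 (SE 0.16), each with an adjusted p of 1.0 in limma.

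The design also allows a test of whether both domains together differ from the sum of their separate differences from GFP. None of the 10 genes passed, nor did any of the 36052 probes (0%). At an unadjusted p under 0.05, 2 genes passed, Trib3 and Ddit3, beside 7.01% of all probes. The study's definition was met by 1 gene, Chac1 (3.84% of all probes), whose interaction of -1.42 (SE 0.89, limma adjusted p = 0.729) was the largest in size among the 10. For Trib3 the interaction was 0.77 (SE 0.24, limma adjusted p = 0.668), its level in NICD1&2 lying higher than the sum. For Ddit3 it was -0.63 (SE 0.25, limma adjusted p = 0.704), its level lying lower. The 2 dimmer Hspa5 probes gave -1.03 and -0.86 (limma adjusted p = 0.645 and 0.694), against -0.39 for the brightest.

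Whether the 10 genes varied together from liver to liver was examined over the 11 arrays in all 45 pairs. Of these, 31 correlations were positive and 14 negative, with a median Pearson r of 0.14. None passed after adjustment over the 45 pairs, with a lowest adjusted p of 0.329 for Pearson's r and 0.192 for Spearman's rho, and 4 had an unadjusted permutation p of Pearson's r under 0.05. The closest pair was Asns with Xbp1 (r = 0.76, permutation p = 0.00732, and rho = 0.76, permutation p = 0.00852, n = 11). Without the 2 arrays farthest from the median of Asns r was 0.77. It was 0.78 over the 6 arrays of slide 1 and 0.67 over the 5 of slide 2, and 0.66 for deviations from the group means. Chac1 and Hspa5 followed each other in rank (rho = 0.76, permutation p = 0.00851, adjusted p = 0.192), with r = 0.63 (permutation p = 0.0353, adjusted p = 0.406). Without the 2 arrays farthest from the median of Chac1 r was 0.36, though leaving these out also narrows the range of values. Hspa5 with Herpud1 (r = 0.64, permutation p = 0.0361, r = 0.58 without the farthest 2) and Atf4 with Atf5 (r = 0.65, permutation p = 0.0325, r = 0.43 without the farthest 2) completed the 4, each with an adjusted p of 0.406. Ddit3 and its target Trib3 had r = -0.51 (permutation p = 0.112, adjusted p = 0.576), which turned to 0.29 for deviations from the group means. For the other 3 pairs under 0.05 the value for such deviations was 0.46 (Chac1 with Hspa5), 0.66 (Hspa5 with Herpud1) and 0.71 (Atf4 with Atf5).

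**Figure D4:**
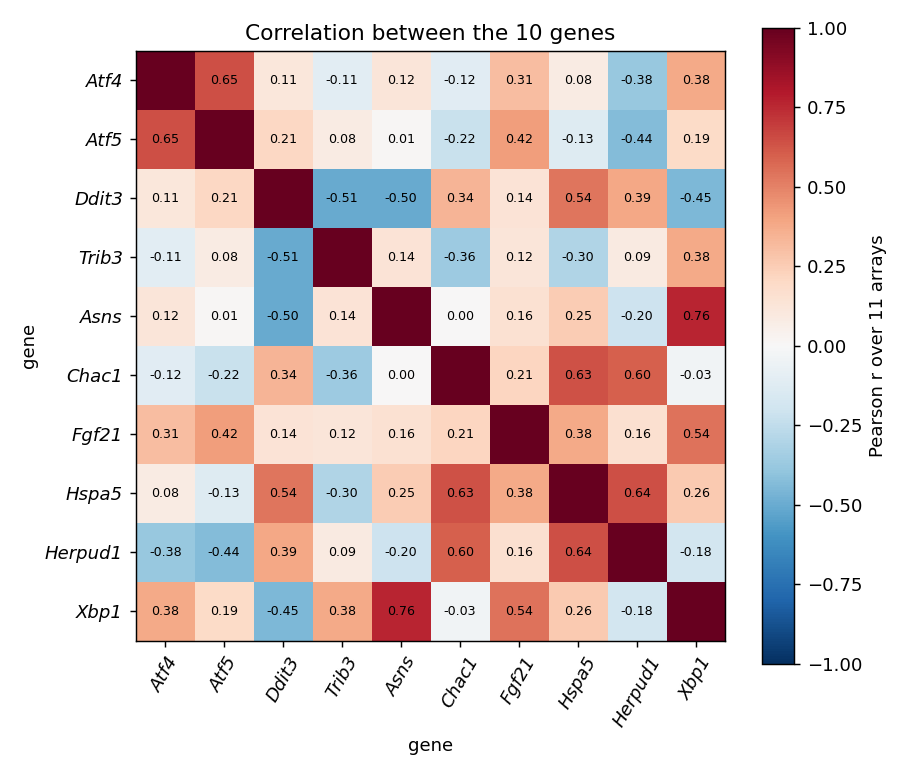
Pearson correlation over the 11 arrays for every pair of the 10 genes (both axes list the genes, colour from -1, blue, to 1, red). Asns with Xbp1, at 0.76, is the highest of the 45 values, and none passed after adjustment.

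Genes whose profile over the 11 arrays was among the 5 most like that of Chac1, among 13840 genes well above background on all arrays, were Ifnk (r = 0.91), Dact1 (0.91), Abhd17b (0.89) and Prl2c1 (0.88). These values describe likeness over 11 arrays that share their groups, and carry no test.

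Other genes of the response were read as lists. None of the genes in the 8 lists that follow passed in any comparison with GFP. The eIF2alpha kinases and phosphatase subunits (10 tested) had medians of 0.02 in NICD1, 0.02 in NICD2 and 0.17 in NICD1&2. In that list Eif2ak3, the ER-resident kinase PERK, gave 0.45, 0.39 and 0.59 (limma adjusted p = 0.844, 0.678 and 0.221), with all arrays of each group above GFP. It was outside the naming rule and was chosen after its values were seen. ATF4 targets of amino acid metabolism and transport (14 tested) had medians of 0.01, 0.07 and 0.24, and the tRNA synthetases (12 tested) 0.02, 0.06 and 0.10. Neither list held a gene that met the study's definition. The list of ATF4 and CHOP targets in signalling and stress (15 tested) had medians of 0.15, 0.54 and 0.48, beside 0.02, 0.02 and 0.12 over all probes. In it 11 of 15 genes were higher than in GFP in NICD1, 14 of 15 in NICD2 and 14 of 15 in NICD1&2, where 53.3%, 54.6% and 65.0% of all probes were. The exception in NICD2 and in NICD1&2 was Atf3, at -0.89 and -0.73.

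Within that list Nupr1, a small stress-induced chromatin protein, read -2.03, -1.73 and -1.80 in GFP, -0.94, -0.62 and -0.38 in NICD2 and -0.76 and -0.19 in NICD1&2. Both groups lay above GFP without overlap, by 1.21 (SE 0.24) and 1.38 (SE 0.26), with adjusted p in limma of 0.196 and 0.113. Over the 22 alternatives these differences ranged from 0.67 to 1.36 in NICD2 and from 0.81 to 1.67 in NICD1&2. In NICD1&2 Nupr1 passed under 3 of 22 alternatives (adjusted p 0.0359 to 0.525 over all), which were normexp with quantile normalization, a filter on all arrays and the replicate number as a block. Jdp2, a bZIP repressor, lay above GFP on all arrays of each NICD group, by 0.80 in NICD1, 1.06 in NICD2 and 0.69 in NICD1&2 (limma adjusted p = 0.783, 0.288 and 0.304). Ddit4, an inhibitor of mTORC1, was higher in NICD1&2 by 1.23 (SE 0.62, limma adjusted p = 0.377), again without overlap. Tnfrsf10b, the death receptor DR5 and a CHOP target, was higher in NICD1&2 by 0.97 (SE 0.22, limma adjusted p = 0.152, 0.0207 under normexp with quantile normalization and up to 0.600 under the other alternatives) and lower in NICD1 than in NICD2 (log2 difference -1.30, SE 0.20, limma adjusted p = 0.309), both without overlap. Its arrays read -1.63 to -0.89 in GFP, -2.05 to -1.72 in NICD1, all below GFP, and -0.73 to -0.50 in NICD2, all above GFP.

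The ER chaperones and folding enzymes (16 tested) had medians of 0.08, 0.05 and 0.20. Creld2 was the member of this list that met the study's definition without overlap, at 0.89 in NICD1&2 (SE 0.32, limma adjusted p = 0.278). Its arrays in NICD1 (mean 5.46) and NICD2 (mean 5.57) also lay all above those of GFP (mean 4.89). Outside the naming rule and chosen after its values were seen, Dnajb9 read 3.21 to 3.29 in GFP. Every NICD array lay higher, at 3.70 to 4.24 in NICD1, 3.74 to 4.14 in NICD2 and 3.85 to 4.30 in NICD1&2. Of the 16 genes, 10, 11 and 12 were above 0 in NICD1, NICD2 and NICD1&2 (53.3%, 54.6% and 65.0% of all probes). Genes of ER-associated degradation (11 tested) had medians of 0.09, 0.13 and 0.20, and 8, 11 and 10 of the 11 were above 0, where 53.3%, 54.6% and 65.0% of all probes were. Derl3, a component of that machinery, was higher in NICD1&2 by 1.81 (SE 0.70, limma adjusted p = 0.296), with arrays at 2.98 and 1.30 against -0.29, 0.42 and 0.84 in GFP. Without 1 array at a time this difference ranged from 0.98 to 2.65. The sensors and ER-bound factors (8 tested) had medians of 0.15, 0.09 and 0.17, and the mitochondrial stress genes (8 tested) 0.03, 0.05 and 0.16.

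**Figure D5:**
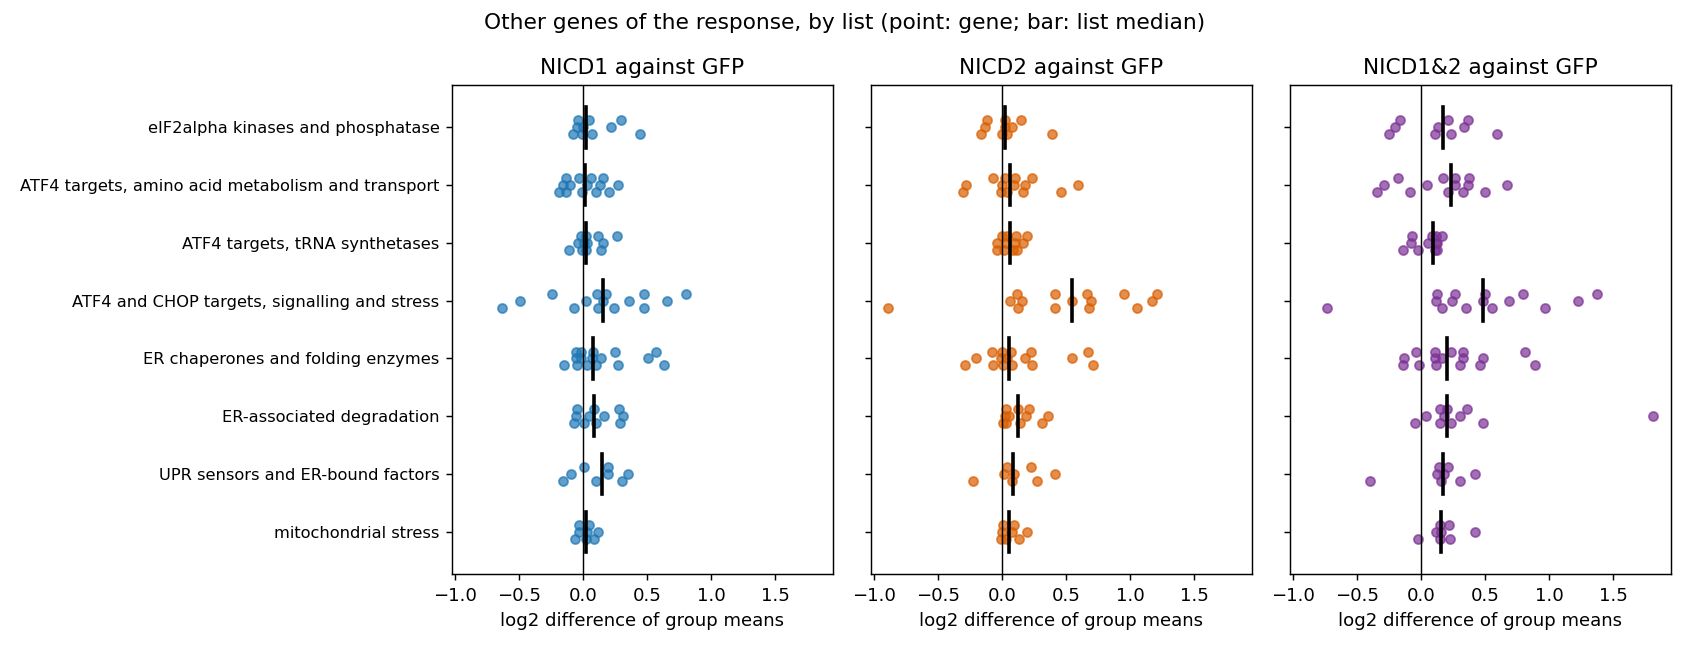
Log2 difference from GFP (horizontal axis) of the genes in 8 lists of the stress response, 1 point a gene, with the list median as a bar, in the 3 NICD groups. The bars lie near 0 in NICD1, and the list of signalling and stress targets has its bar at 0.54 in NICD2 and 0.48 in NICD1&2.

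Markers of other cells were read beside these values. Of 8 bile duct markers 7 were tested, and the summed level of the list was 3.00 to 3.46 in GFP, 4.56 to 4.99 in NICD1, 4.56 to 4.98 in NICD2 and 5.07 to 5.37 in NICD1&2. These sums followed Spp1, which alone read 2.63 to 3.20, 4.43 to 4.89, 4.44 to 4.88 and 4.95 to 5.28. Of this list Spp1, which encodes osteopontin, passed in NICD2 against GFP (1.81, SE 0.20, limma adjusted p = 0.0262) and in NICD1&2 against GFP (2.23, SE 0.22, limma adjusted p = 0.0108). In NICD1 it missed the threshold (1.71, SE 0.20, limma adjusted p = 0.0931). Spp1 no longer passed in NICD2 under 9 of 22 alternatives (adjusted p 0.00445 to 0.174 over all), 6 of which left out 1 array each, GFP 1, GFP 2, NICD1 replicate 1, NICD1 replicate 3, NICD2 replicate 2 or NICD2 replicate 3. In NICD1&2 it no longer passed under 4 (adjusted p 0.00334 to 0.317 over all), among them those without GFP 2 and without NICD1&2 replicate 2. The other bile duct markers did not pass. In each NICD group 6 of the 7 were above 0 (53.3%, 54.6% and 65.0% of all probes), and the list medians were 0.41, 0.48 and 0.63 in NICD1, NICD2 and NICD1&2. Sox9, a transcription factor of bile duct cells and also a Notch target, differed by 1.16 in NICD1&2 (SE 0.31, limma adjusted p = 0.195) without overlap, by 0.62 without NICD1&2 replicate 1 and by 1.69 without replicate 2. Of 19 exocrine pancreas markers, 10 were well above background on no array. The summed level was 5.43 to 5.78 in GFP, 5.32 to 5.54 in NICD1, 5.53 to 5.69 in NICD2 and 5.61 to 5.78 in NICD1&2. Pnliprp1, a pancreatic lipase-related protein, was not well above background in GFP. In the main processing it was at least 1.82-fold higher in NICD1, 6.98-fold in NICD2 and 6.88-fold in NICD1&2 (limma adjusted p = 0.512, 0.00432 and 0.00921), each without overlap. Under other processing its log2 difference was as low as 0.15 in NICD1, 0.66 in NICD2 and 0.63 in NICD1&2. The calls in NICD2 and NICD1&2 were lost under 2 and 4 of 21 alternatives (adjusted p up to 0.0862 and 0.317). In NICD1&2 the array whose omission ended the call was replicate 2 (adjusted p = 0.179). Reg1, an acinar cell protein, was well above background on the 3 NICD2 arrays and on no other. Summed levels of Kupffer cell and monocyte markers were 6.61 to 7.16 in GFP, 6.60 to 6.78 in NICD1, 6.64 to 6.81 in NICD2 and 6.96 to 7.11 in NICD1&2. Those of lymphocyte and plasma cell markers were 4.70 to 5.10 and those of red blood cell markers 8.05 to 9.04 over all arrays. The part of these cells in the values of Chac1, Herpud1, Xbp1 and the other stress genes was not tested.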

How the data were processed

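The authors scanned Agilent single-colour arrays and deposited the spot intensities of each array (Feature Extraction 11.5) and a table of normalized log2 values; 11 livers were measured. The RNA kit is named differently in the labels and in the methods. From the deposited processed signal intensities, control spots (3671 of 62976) and flagged spots (62 to 132 an array, 0 of them of the 10 genes) were left out, spots of a probe were averaged, and each array's 75th percentile was subtracted on the log2 scale. The deposited log2 table equals these values up to a constant per array. Tests covered the 36052 of 56605 probes that were well above background on 2 arrays or more with limma 3.58.1 in R 4.3.3, 1 mean per group, with Benjamini-Hochberg adjustment over all of them. The scripts were tested on simulated data. Probes were named through RefSeq accessions (32994 probes). Deviations from group means had a median correlation of 0.038 over 15 same-number pairs of arrays (-0.43 to 0.18) and 0.017 over 30 others (-0.35 to 0.47). Such deviations cancel within small groups, so that these values cannot exclude a pairing by replicate number. No source says how the livers relate beyond 1 to an array, and p-values measure the spread between them. The precision is limited by the number of arrays. Members, lists and the rule for named genes (all members; from lists, those passing the adjusted threshold, or meeting the study's definition without overlap, up to 4 a list and comparison, not all of them printed; the 5 genes most like the member of largest range among those detected on all arrays) were chosen with earlier results of these data known. Of the 5 most like genes, 1 is not reported here.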

Additional observations from a re-analysis of the deposited data

How the results depend on the processing

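Under the 22 alternatives (other normalizations, filters and fits, and each array left out), the number of the 10 genes called stayed at 0 in every comparison, except in NICD1&2 against GFP with normexp background correction and quantile normalization together, where it was 1 (Herpud1). With the replicate number as a block (replicate block), 0 of the 10 passed in each comparison, and no call changed among them. Among the list genes named, Nupr1 passed in NICD1&2 with that replicate block (adjusted p = 0.0359). The median difference of the 10 genes in NICD2 against GFP, when 1 array at a time was left out, ranged from -0.18 to 0.11, the latter without GFP 1. Several differences near 0, those of Fgf21 from GFP, and that of Asns in NICD1&2 against GFP changed sign with single arrays. With each array left out in turn, Atf4 ranged from -0.059 to 0.19 in NICD1 against GFP, from -0.16 to 0.086 in NICD2 against GFP and from -0.27 to 0.13 in NICD1&2 against GFP. Atf5 ranged from -0.14 to 0.10 in NICD1 against GFP and from -0.20 to 0.087 in NICD1&2 against GFP. Fgf21 ranged from -1.07 to 0.55, -1.32 to 0.13 and -0.029 to 1.05 in these comparisons. In NICD1&2 against GFP, Trib3 ranged from -0.099 to 0.075, Asns from -1.73 to 0.31 and Hspa5 from -0.052 to 0.55. Atf5 in NICD1 against GFP was 0.054 with quantile normalization, 0.035 with normexp and quantile normalization together and 0.0049 with slide as a block. Hspa5 in NICD1&2 against GFP was -0.030 as the mean of all probes. The cause of these changes was not tested. Of the 10 genes, Fgf21 was not well above background on 1 array, and NICD1&2 had 2 arrays.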

Other observations

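Lists read beside the stress genes held some further differences. Of the acute phase and inflammation genes (12 tested), 0 passed, and 12, 8 and 6 of the 12 were below GFP in NICD1, NICD2 and NICD1&2, with medians of -0.31, -0.23 and -0.013. Over all probes 53.3%, 54.6% and 65.0% were above GFP. In the same 3 groups 1, 5 and 9 of 10 hepatocyte markers were above GFP, as were 0, 1 and 4 of 10 Kupffer cell and monocyte markers and 1, 3 and 6 of 12 lymphocyte and plasma cell markers. Il1b lay below GFP without overlap in each NICD group, at -2.0, -2.34 and -1.74 on the log2 scale in NICD1, NICD2 and NICD1&2 (limma adjusted p = 0.586, 0.0973 and 0.163). It passed under 1, 3 and 2 of 22 alternatives (adjusted p 0.00470 to 0.989, 0.000390 to 0.459 and 0.00902 to 0.529 over all), in each group without NICD2 replicate 3, and was -0.96, -1.0 and -0.92 under normexp with quantile normalization. Saa1 and Saa2, which share near-identical sequence, gave -1.53 each in NICD1 (limma adjusted p = 0.784 and 0.794). Leaving out array GFP 1 gave -0.93 for Saa1 and -0.91 for Saa2, whereas -2.10 and -2.12 were obtained when GFP 2 was omitted. Lcn2 was lower in NICD1 than in NICD2, with a difference of -1.33 without overlap (limma adjusted p = 1.0). Of the fasting and PPAR-alpha genes (14 tested), Acot1 gave 1.53 in NICD1&2 (limma adjusted p = 0.0988, and 0.0339 to 0.429 over 22 alternatives), and Cyp4a10 was higher in NICD1 than in NICD2 by 1.1 without overlap (limma adjusted p = 1.0). Of the clock genes (14 tested), Ciart gave 0.87 in NICD2 and 0.89 in NICD1&2 (limma adjusted p = 0.226 and 0.153, and 0.0355 to 0.516 and 0.0184 to 0.522 over 22 alternatives).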
